A study of Mus musculus with 48 samples.

Results

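Purinergic sensing in microglia was followed through 5 of the 478 genes measured: the P2Y receptor genes P2ry12, P2ry13 and P2ry6, the related receptor gene Gpr34, and Kcnk13, which encodes the potassium channel THIK-1. They were chosen by name, as microglial receptors of this family plus the channel that acts with P2ry12. All 5 were present in each of 3 tables of comparisons, named here CTL/LB, CTL/UPS and LB/UPS after the groups compared. The tables came from microglia of the hippocampus of 48 Balbc/Byj mouse pups aged 17 days, with 16 animals in each of the rearing groups CTL, LB and UPS and 8 of each sex within a group. CTL is the control rearing per the labels, and, as background, LB stands for rearing with limited bedding and UPS for rearing with unpredictable stress added. No genotype or drug treatment is given in the labels. From each animal some 60000 microglia, sorted by flow cytometry after a Percoll gradient, gave a lysate that was hybridised directly on the mouse glial panel of nCounter, a method that counts barcoded probes on single RNA molecules without amplification. The libraries were run in 4 batches of 12, each with 2 animals of every rearing group and sex, so batch and rearing were balanced.

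As background, ATP and ADP leak from injured or active cells and serve as a local alarm. Microglia sense ADP mainly through P2Y12, a receptor that couples to inhibitory G proteins and steers their processes towards the source. THIK-1 is a tonically active potassium channel that sets the resting membrane potential of microglia, supports the constant motion of their processes, and lets out the potassium whose loss favours inflammasome activation and interleukin-1 beta release.

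The values are log2 ratios between rearing groups, with the sexes pooled, and their signs are given as deposited. Which group is in the numerator is not stated in the headers. The 3 tables were additive to within 0.003 on the log2 scale, which holds for either reading. If the group named second was divided by that named first, a negative ratio means that UPS had less transcript, or that LB had less in the CTL/LB table. The reverse reading turns all signs together. No values per library were used, so neither levels, nor the number of animals on each side, nor the overlap of groups is given, and the depth is unknown. For the same reason the labelled cell type could not be checked by level, although the microglial markers Tmem119, Cx3cr1, Csf1r, P2ry12 and Aif1 were among the genes in the tables. In such bulk samples fewer cells of a type and less RNA per cell cannot be told apart.

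P2ry12 and P2ry13 are neighbouring genes in the GRCm38.p6 annotation, with no other protein-coding gene between them, and both lie within the span of Med12l. P2ry6, Gpr34 and Kcnk13 lie on other chromosomes. The RefSeq promoter table of that build held 3 of the 5 genes. The 250 bases before the start sites of all 3 are shown. Of these, P2ry12 and P2ry13 are adjacent and had like ratios, and Kcnk13 was the gene that passed the test. The P2ry12 stretch is chr3:59262986-59263235 on the minus strand, the P2ry13 stretch is chr3:59210883-59211132 on the minus strand, and the Kcnk13 stretch is chr12:99964249-99964498 on the plus strand. Each is written 5′ to 3′ along its gene. Capitals mark exact matches on either strand to GAGGAA, the core bound by PU.1, a transcription factor of the macrophage lineage, or to CAGAC, an element bound by SMAD proteins that reads as GTCTG where it lies on the other strand.
P2ry12: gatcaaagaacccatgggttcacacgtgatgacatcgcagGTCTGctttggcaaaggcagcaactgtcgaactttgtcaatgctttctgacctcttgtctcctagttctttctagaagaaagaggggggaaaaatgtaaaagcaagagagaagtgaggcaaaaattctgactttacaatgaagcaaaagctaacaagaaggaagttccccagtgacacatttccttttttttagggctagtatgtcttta
P2ry13: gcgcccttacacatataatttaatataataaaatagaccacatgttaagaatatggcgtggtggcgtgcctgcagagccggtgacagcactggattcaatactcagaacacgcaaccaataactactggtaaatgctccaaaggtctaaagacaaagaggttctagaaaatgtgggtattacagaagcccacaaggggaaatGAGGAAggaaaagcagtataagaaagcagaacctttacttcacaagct
Kcnk13: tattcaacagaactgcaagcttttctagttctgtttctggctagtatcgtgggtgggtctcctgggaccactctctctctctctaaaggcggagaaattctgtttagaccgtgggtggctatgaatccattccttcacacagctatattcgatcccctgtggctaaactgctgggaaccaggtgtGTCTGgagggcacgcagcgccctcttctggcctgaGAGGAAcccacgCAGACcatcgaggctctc

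The adjacent genes shared no match to these exact letters. P2ry12 held 1 CAGAC match, whose first base lay 210 bases before the start site, and no GAGGAA match. P2ry13 held 1 GAGGAA match, 48 bases before its start site, and no CAGAC match. Kcnk13 held a GAGGAA match 30 bases before its start site and 2 CAGAC matches, at 65 and 18 bases. The core motif of MEF2 factors had no match in any of them. Of 32851 mouse promoter windows of the same length, 23.3% held GAGGAA, 42.2% CAGAC and 3.20% the MEF2 core, so the matches to the first pair are common. The P2ry12 and P2ry13 stretches had a GC content of 41.6% each and that of Kcnk13 52.8%, against a median of 52.4% over all promoters. These matches are letters in a window and were not linked to the ratios.

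Kcnk13 was the only one of the 5 genes to pass the test, and it did so in both comparisons that involve UPS. A gene passed at a Benjamini-Hochberg adjusted p below 0.05 over all 478 genes of a table. The log2 ratio of Kcnk13 in the authors' deposited table of CTL/UPS was -0.11, or 0.929-fold (p = 0.00204, adjusted p = 0.0461), and the recovered 95% interval ran from 0.888-fold to 0.972-fold. Against LB the authors' deposited table of LB/UPS gave -0.11, or 0.926-fold (p = 0.00138, adjusted p = 0.0244), with an interval from 0.886-fold to 0.969-fold. CTL and LB stood next to each other, with a log2 ratio of 0.0044 in the authors' deposited table (p = 0.892, adjusted p = 0.975) and an interval from 0.959-fold to 1.05-fold. UPS thus stood apart from both other groups, and the size of the gap was about the same from either. These 2 comparisons share the UPS libraries and are not independent of each other.

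The share of genes that passed gives the background for these counts. Between CTL and UPS 23 of 478 genes passed (4.81%), 17 of them positive and 6 negative in ratio (1.26% negative), against 1 of the 5 genes. That split was 17 positive and 3 negative once the ratios were centred on the table's median, and Kcnk13 then missed the threshold (adjusted p = 0.0527 in this fit). Between LB and UPS 30 passed (6.28%), 22 positive and 8 negative (1.67% negative), again with 1 of the 5. Kcnk13 was 1 of 3 genes (0.628%) that passed with a negative ratio in both. Between CTL and LB none of the 478 passed (0%), and none of the 5 genes had an unadjusted p below 0.05, beside 56 of all genes (11.7%). The call between CTL and UPS was near the threshold and was also lost when the 3 tables were adjusted as 1 family (adjusted p = 0.0544).

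**Figure D1:**
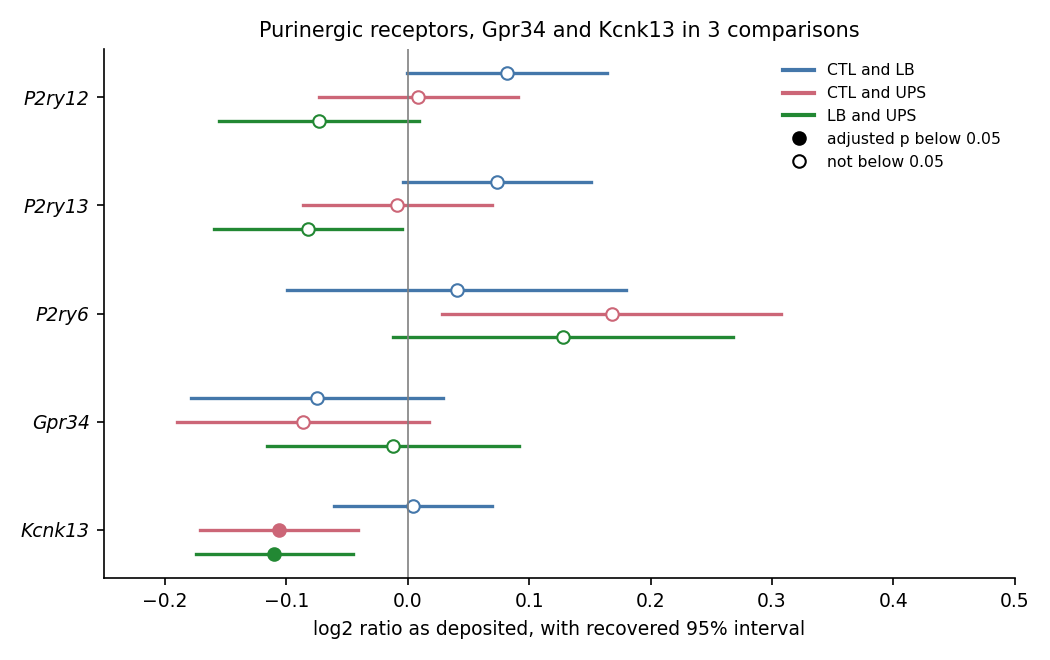
Log2 ratios as deposited (x axis) of the 5 genes (y axis) in the comparisons of CTL and LB, CTL and UPS, and LB and UPS. Points are ratios, lines are recovered 95% intervals, and filled points have an adjusted p below 0.05; the 2 filled points are those of Kcnk13 in the comparisons with UPS.

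The log2 ratio of Kcnk13 was larger in size than that of the median gene in both comparisons with UPS (0.051 and 0.054), and its error was smaller than the median gene's. Its recovered standard error was 0.032 on the log2 scale, the 54th smallest of 478, where the median gene had 0.050. By the size of its log2 ratio Kcnk13 ranked 106 of 478 between CTL and UPS and 108 between LB and UPS, while by p it ranked 20 and 27. The half-width of its interval corresponded to 1.05-fold. The half-widths of the other genes were 1.06-fold for P2ry12 and P2ry13, 1.07-fold for Gpr34 and 1.10-fold for P2ry6.

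Across the 3 groups at once, the ratios of a gene and its standard error give a test of any rearing difference with 2 and 42 degrees of freedom. Kcnk13 passed it (F = 7.55, Benjamini-Hochberg adjusted p = 0.0279) and ranked 27 of 478. It was 1 of the 5 genes to do so, beside 33 of all genes (6.90%). The next of the 5 was P2ry6 (F = 3.21, p = 0.0504, adjusted p = 0.249), followed by P2ry13 (F = 2.75, adjusted p = 0.295), P2ry12 (F = 2.43, adjusted p = 0.339) and Gpr34 (F = 1.67, adjusted p = 0.463), and none of these passed.

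P2ry12, the ADP receptor that directs process movement, passed in none of the pairs. Its log2 ratio in the authors' deposited table of CTL/LB was 0.082 (p = 0.051, adjusted p = 0.413), with a recovered interval from 1.00-fold to 1.12-fold. The authors' deposited table of LB/UPS gave -0.073 (p = 0.0802, adjusted p = 0.328), with an interval from 0.898-fold to 1.01-fold. Between CTL and UPS the authors' deposited table gave 0.0088 (p = 0.83, adjusted p = 0.927), with an interval from 0.950-fold to 1.07-fold. By these ratios CTL and UPS lay closest and LB lay to one side of both, without passing against either.

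P2ry13, a further ADP receptor of the same subfamily, had nearly the same values as its neighbour in the genome. Its log2 ratio was 0.074 in the authors' deposited table of CTL/LB (p = 0.0629, adjusted p = 0.444), with an interval from 0.997-fold to 1.11-fold. Between LB and UPS the authors' deposited table gave -0.082 (p = 0.0388, adjusted p = 0.218), with an interval from 0.895-fold to 0.997-fold. Its ratio in the authors' deposited table of CTL/UPS was -0.0086 (p = 0.825, adjusted p = 0.927), with an interval from 0.942-fold to 1.05-fold. LB again stood to one side, and no pair passed. Whether the 2 genes varied together from animal to animal cannot be seen in tables without values per library.

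P2ry6, the receptor for UDP that triggers engulfment by microglia, had the largest log2 ratios of the 5 in both comparisons with UPS and the widest error. It was 0.17 in the authors' deposited table of CTL/UPS, or 1.12-fold (p = 0.0197, adjusted p = 0.21), with a recovered interval from 1.02-fold to 1.24-fold. The authors' deposited table of LB/UPS gave 0.13 (p = 0.0721, adjusted p = 0.322), with an interval from 0.992-fold to 1.20-fold. CTL and LB were closer, at 0.040 in the authors' deposited table (p = 0.566, adjusted p = 0.854). As for Kcnk13, UPS lay farthest from the other groups, but the sign was the opposite one. The difference between these genes was not tested, because their covariance is not in the tables. By unadjusted p below 0.05, P2ry6 and Kcnk13 made 2 of the 5 genes between CTL and UPS, beside 78 of 478 (16.3%). Between LB and UPS these were P2ry13 and Kcnk13, again 2 of 5, beside 90 of 478 (18.8%).

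Gpr34, a receptor for lysophosphatidylserine that is related to the P2Y receptors and enriched in microglia, differed least by test. Its log2 ratio was -0.075 in the authors' deposited table of CTL/LB (p = 0.154, adjusted p = 0.566) and its interval ran from 0.884-fold to 1.02-fold. Against UPS the authors' deposited table of CTL/UPS gave -0.087 (p = 0.0997, adjusted p = 0.394), with an interval from 0.876-fold to 1.01-fold. LB and UPS lay closest, at -0.012 in the authors' deposited table (p = 0.818, adjusted p = 0.929), with an interval from 0.923-fold to 1.07-fold. Here CTL stood to one side, within the error.

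**Figure D2:**
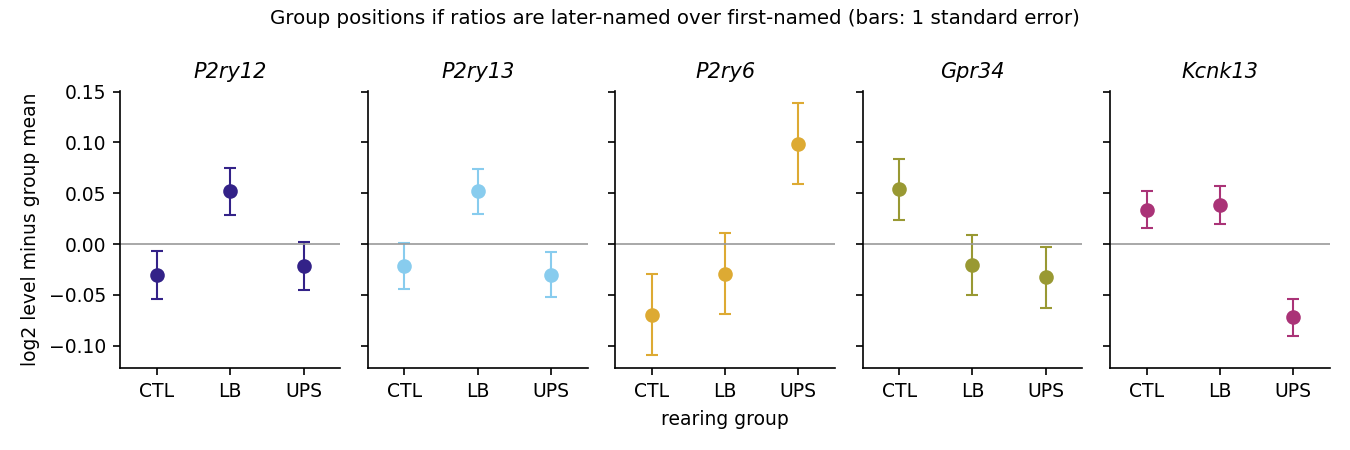
Position of each rearing group (x axis) as its log2 level minus the mean of the 3 groups (y axis), computed from the ratios if these are later-named over first-named; the reverse reading mirrors every panel about 0. Bars are 1 standard error; LB is farthest from the mean for P2ry12 and P2ry13, UPS for P2ry6 and Kcnk13, and CTL for Gpr34.

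The order of the groups differed among the 5 genes. If ratios are later over first, the order was LB, UPS, CTL for P2ry12 and LB, CTL, UPS for P2ry13. It was UPS, LB, CTL for P2ry6, CTL, LB, UPS for Gpr34, and LB, CTL, UPS for Kcnk13. Of the neighbours in these orders only CTL and UPS of Kcnk13 differed past the threshold. Between CTL and LB 4 of the 5 ratios were positive, beside 252 of all 478. The median of the 5 was 0.040, where the median of all genes was 0.0035. Between CTL and UPS 2 were positive, beside 233 of 478, and the median was -0.0086, against -0.0025 for all genes. Between LB and UPS 1 was positive, beside 210 of 478, and the median was -0.073, against -0.010 for all genes. The median size of the 5 log2 ratios was 0.074, 0.087 and 0.082 in that order, where all genes had 0.043, 0.051 and 0.054.

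**Figure D3:**
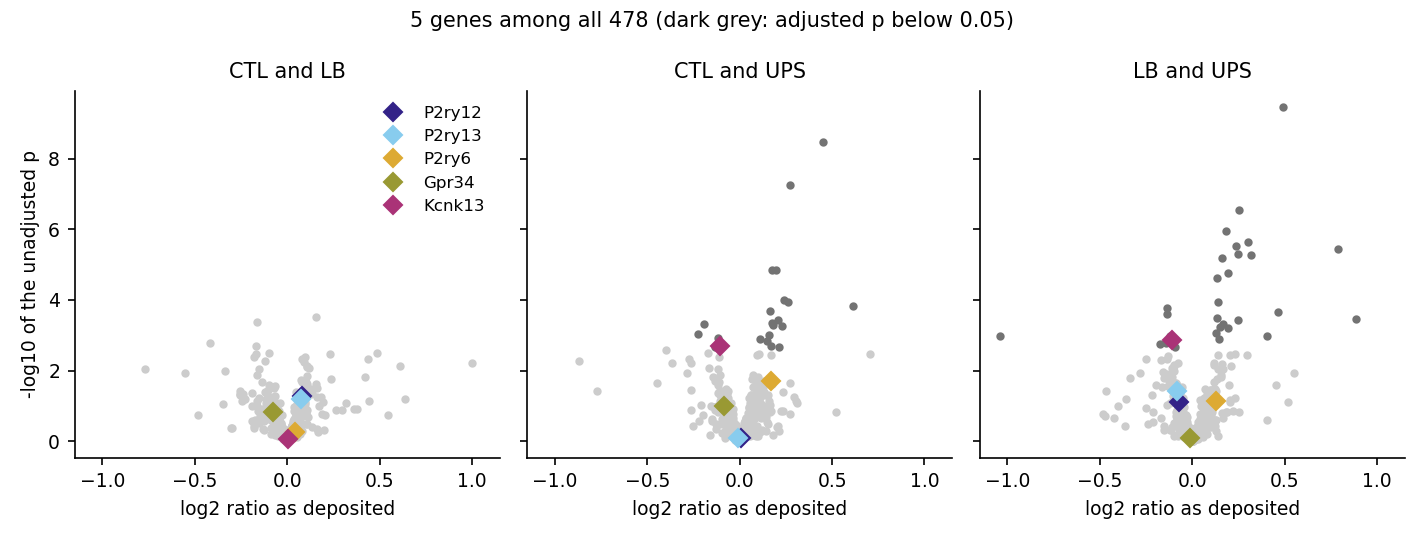
Log2 ratio as deposited (x axis) against -log10 of the unadjusted p (y axis) for all 478 genes in each comparison, with genes past an adjusted p of 0.05 in dark grey and the 5 genes as coloured diamonds. Kcnk13 lies at the lower edge of the dark grey points in both panels with UPS, and the 4 receptor genes lie among the light grey points of every panel.

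The genes of most similar pattern were found by the Euclidean distance between standardised ratios (log2 ratio over standard error) in the 3 tables, among the 473 other genes. The 3 ratios describe only 3 groups, so the likeness rests on few numbers. Nearest to Kcnk13 were Tomm70a, a receptor of mitochondrial protein import (distance 0.213), Il1b, the gene of interleukin-1 beta (0.562), and Ranbp9, a scaffold protein (0.714), where the median distance was 4.88. Tomm70a had log2 ratios of 0.0019, -0.12 and -0.12 for CTL/LB, CTL/UPS and LB/UPS in the authors' deposited table, and passed in both comparisons with UPS. Il1b had 0.17, -0.87 and -1.04 in the authors' deposited table in the same order, far larger ratios with far larger errors, and passed between LB and UPS (adjusted p = 0.0207).

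P2ry13 was 6th nearest to P2ry12 among all 477 other genes (distance 0.564), and the genes nearest to P2ry12 outside the 5 were Ywhaq, a 14-3-3 adaptor (0.197), and Camk2g, a calcium-dependent kinase (0.420). Nearest to P2ry13 were Csf1, a growth factor of microglia (0.158), and Camk2g (0.298). Nearest to P2ry6 were Bin1, a membrane-bending adaptor (0.120), Serinc3 (0.269) and Stat3 (0.404). Among the genes nearest to Gpr34 was H2-T23, a class Ib antigen-presenting molecule (0.223). None of these genes near the 4 receptors passed in any pair. Kcnk13 and P2ry6 lay at a distance of 7.80, and Kcnk13 was 473rd of 477 in nearness to P2ry6.

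**Figure D4:**
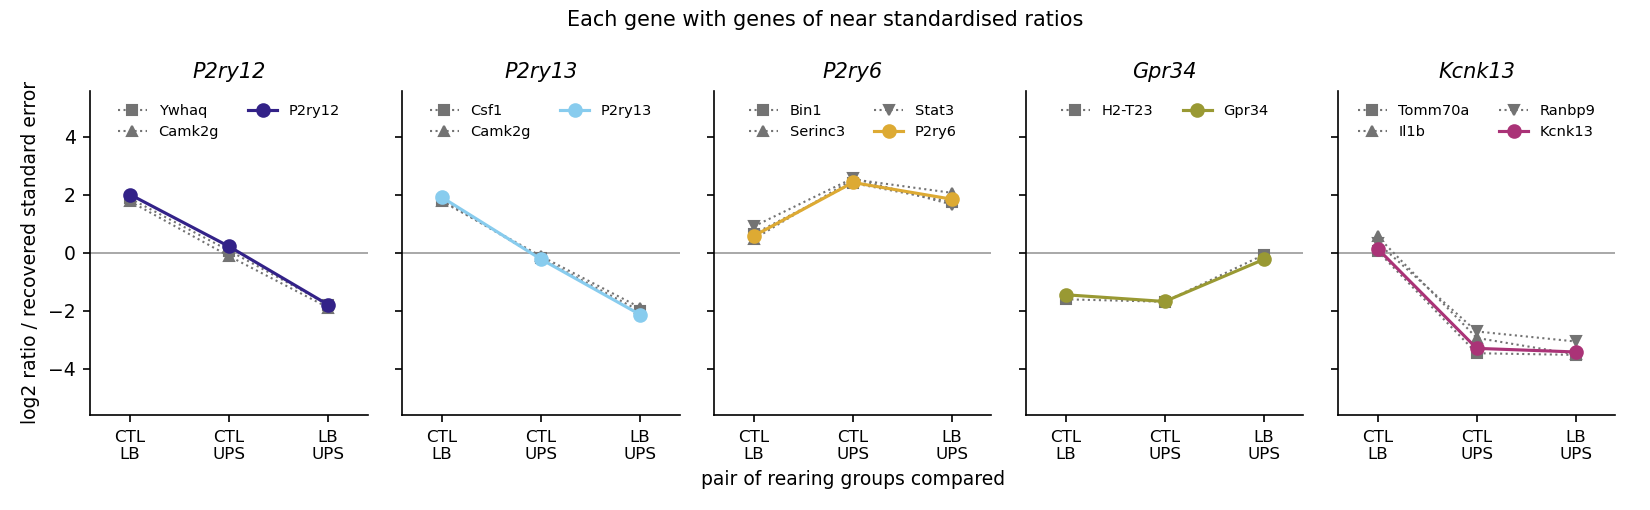
Log2 ratio divided by its recovered standard error (y axis) in the 3 comparisons (x axis) for each of the 5 genes (coloured) and the genes near it that are named in the text (grey). The panels of P2ry12 and P2ry13 fall from positive to negative in the same way, and Kcnk13 lies near 0 between CTL and LB and below -3 in both comparisons with UPS.

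Other genes of nucleotide signalling were sparse on the panel, with 4 of 22 listed genes measured, and none passed in any pair. Over all genes 0% passed for CTL/LB, 4.81% for CTL/UPS and 6.28% for LB/UPS. No call among 4 genes is thus close to the background. P2rx7, the ATP-gated channel that opens at high ATP, had the smallest unadjusted p, with a log2 ratio of 0.055 in the authors' deposited table of CTL/LB (p = 0.0484, adjusted p = 0.413). It was at 0.052 between CTL and UPS and -0.0029 between LB and UPS in the authors' deposited table. Entpd1, the ectoenzyme CD39 that degrades ATP and ADP, was at 0.0086, 0.053 and 0.044 for CTL/LB, CTL/UPS and LB/UPS in the authors' deposited table. Adora3, an adenosine receptor, was at -0.017, 0.021 and 0.038 in the authors' deposited table in that order. Panx1, a channel that releases ATP, was at 0.013, 0.0018 and -0.011 in the authors' deposited table in that order.

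Among genes that act on the inflammasome route to which potassium efflux belongs, 3 of 8 listed were measured, and they had different signs. In each comparison with UPS 1 of the 3 passed, beside 4.81% of all genes between CTL and UPS and 6.28% between LB and UPS. Nlrp3, the sensor that responds to potassium loss, had a log2 ratio of 0.23 in the authors' deposited table of CTL/UPS (adjusted p = 0.0206) and 0.17 for LB/UPS (adjusted p = 0.0928), opposite in sign to Kcnk13. Il18, a cytokine that the inflammasome matures, was at 0.13 and 0.12 in the authors' deposited table for those pairs and did not pass (adjusted p = 0.253 and 0.209). Il1b shared the sign of Kcnk13 in both comparisons with UPS, as given above. Between CTL and LB none of these genes passed, as none of all 478 did.

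Of 7 measured genes of Gi and PI3-kinase signalling, through which P2Y12 acts, 2 passed with a positive ratio and none with a negative in each comparison with UPS, beside 4.81% and 6.28% of all genes. Positive ratios were also the majority of calls over all genes, 17 of 23 between CTL and UPS and 22 of 30 between LB and UPS. Both genes encode subunits of PI3-kinase, an enzyme used by receptors of many kinds. Pik3cb, a catalytic subunit, was at 0.18 (CTL/UPS) and 0.25 (LB/UPS) in the authors' deposited table on the log2 scale (adjusted p = 0.0199 and 0.000317). Pik3r1, a regulatory subunit, had 0.16 and 0.17 in the authors' deposited table for the same pairs (adjusted p = 0.031 and 0.0122). The G protein subunit gene Gnb1 was at 0.064 and -0.016 in the authors' deposited table for these pairs and did not pass. Over the 7 genes the median log2 ratio was 0.064 between CTL and UPS and 0.020 between LB and UPS, against -0.0025 and -0.010 for all genes.

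Of 20 listed genes of Gq and calcium signalling, the route of P2Y6, 5 were measured, and none of these passed in any pair. Beside them 0% of all genes passed for CTL/LB, 4.81% for CTL/UPS and 6.28% for LB/UPS. No call among 5 genes is close to that background. Their smallest p belonged to the kinase Prkcd, at 0.078 in the authors' deposited table of CTL/UPS (p = 0.0619, adjusted p = 0.325). Of 4 measured ion channels and transporters other than Kcnk13, 1 passed, and only between LB and UPS, where 6.28% of all genes did. This was Slc12a2, a sodium-potassium-chloride importer, with a log2 ratio of -0.18 in the authors' deposited table of LB/UPS (adjusted p = 0.0301) and -0.11 for CTL/UPS (adjusted p = 0.298), the sign of Kcnk13 in both. Kcnd1, a voltage-gated potassium channel and the only other potassium channel on the list to be measured, was at 0.052 and 0.075 in the authors' deposited table of CTL/UPS and LB/UPS and did not pass.

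Of 28 measured genes of the microglial signature, 1 passed between CTL and UPS, a share no larger than that of all genes (4.81%), and 6 passed between LB and UPS, beside 6.28% of all genes. Mertk passed in both, and Tmem119, Slco2b1, C1qa, C1qb and C1qc between LB and UPS. All of these were positive, as were most calls over all genes. The median log2 ratio of the 28 was 0.016 between CTL and UPS and 0.035 between LB and UPS, against -0.0025 and -0.010 for all genes. Tmem119, a surface marker used beside P2ry12, was at 0.46 in the authors' deposited table of LB/UPS (adjusted p = 0.0076) while P2ry12 was at -0.073. Of 4 measured TGF-beta genes, a pathway that maintains the mature microglial state, Tgfbr1 passed in both comparisons with UPS and Pmepa1 between CTL and UPS, all positive, beside 4.81% and 6.28% of all genes. Tgfbr1, a receptor subunit, was at 0.11 and 0.18 in the authors' deposited table of CTL/UPS and LB/UPS. Tgfb1, the ligand, had the opposite sign, at -0.047 and -0.076 in the authors' deposited table for these pairs, and did not pass (adjusted p = 0.375 and 0.0725). These lists were chosen with earlier results of the tables known and their counts are descriptions.

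**Figure D5:**
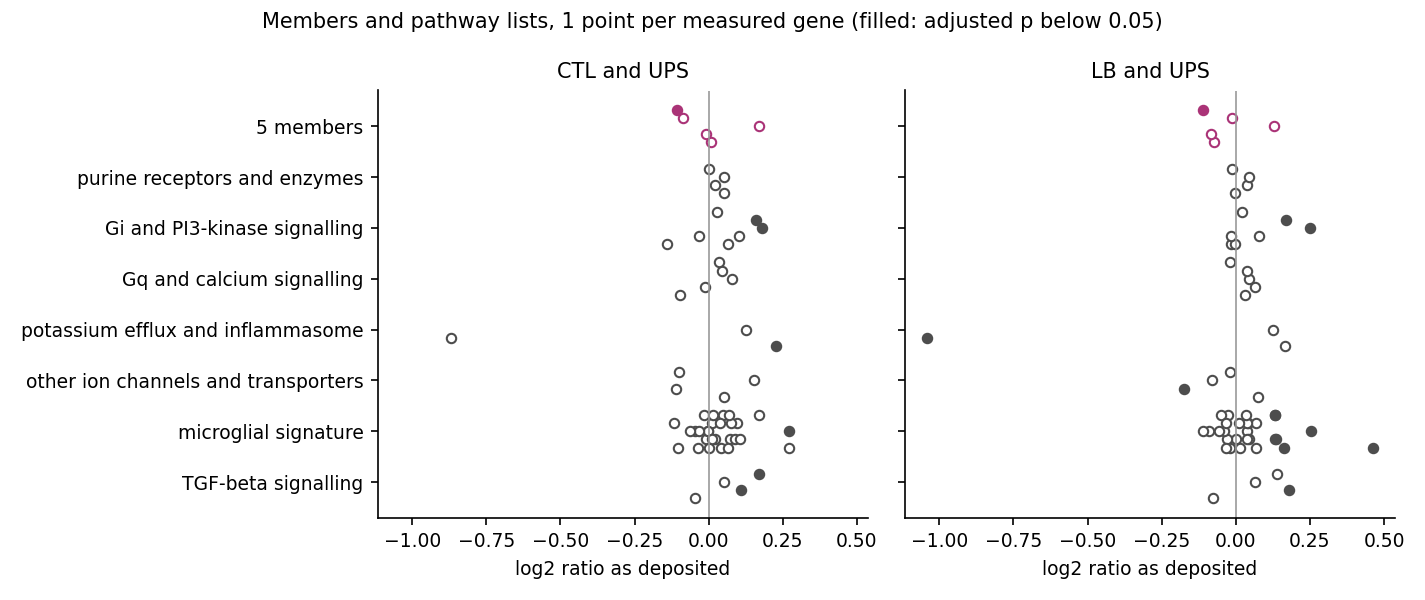
Log2 ratio as deposited (x axis) of every measured gene of the 5 and of each pathway list (y axis), for CTL and UPS (left) and LB and UPS (right), with filled points past an adjusted p of 0.05. Filled points of the signature, PI3-kinase and TGF-beta lists lie to the right of 0, and those of Kcnk13, Slc12a2 and Il1b to the left.

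Markers of other cell types were read beside Kcnk13. Of 25 such markers 9 were measured, and 2 of them passed in each comparison with UPS, both with a positive ratio and so opposite to Kcnk13. Over all genes 4.81% and 6.28% passed in these comparisons, most of them with a positive ratio. Slc1a3, an astrocyte glutamate transporter, was at 0.21 and 0.25 in the authors' deposited table of CTL/UPS and LB/UPS. Stab1, a scavenger receptor, was at 0.21 and 0.20 in the authors' deposited table for these pairs. Stab1 was the only listed marker of border macrophages to be measured. Over the 9 markers the log2 ratios ran from -0.77 to 0.21 between CTL and UPS and from -0.47 to 0.25 between LB and UPS, the lowest being Klrd1 of natural killer cells, which passed by the authors' deposited table in neither pair. Their summed levels are not in the tables, and their part in the Kcnk13 result was not tested.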

How the data were processed

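Per the series text, the authors counted transcripts on the nCounter panel, kept genes above 20 counts and compared pairs of rearing groups in nSolver's advanced analysis with batch as a covariate. For the normalization and for nSolver's version the sources used here give nothing. Per the file headers, each deposited table holds, for 478 genes, the log2 fold change, its linear ratio (equal to 2 to the log2 value within 0.494%), a p-value and its Benjamini-Hochberg adjustment. The adjusted p-values were recomputed over the 478 genes, and the same genes passed at 0.05 as by the deposited column.

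No model was refitted. A standard error per gene was recovered from the deposited log2 ratio and two-sided p of the comparison with the smallest p, by a t distribution with 42 degrees of freedom (1 model of 48 libraries with rearing and batch). With 42 it differed between tables of a gene by a median of 0.223% and with 27 (separate fits of 2 groups) by 1.67%, over 120 genes, and by at most 0.785% for the 5 genes. The test of any rearing difference divides the sum of the 3 squared log2 ratios by 3 times the squared standard error. Both were tested on data simulated from 1 model of 48 libraries with rearing and batch and with independent animals. Such data cannot check the choice of that model or the effect of shared litters. Animals of a group and sex came from 4 to 5 litters per the labels, so likeness among littermates would make these p-values too small.

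Named genes are the 5 members, the members of each pathway list past the threshold or otherwise up to 3 with the smallest p, and the 3 nearest genes of each member, of which some are not reported here. Other genes named (Gnb1, Kcnd1, Il18, Klrd1, Tgfb1 and the remaining nucleotide-signalling genes) were picked with their values in view. The members and lists were chosen with earlier results of these data known. Of the 5 genes all matched the RefSeq gene table of GRCm38.p6 and 3 its promoter table. Planned protein alignments were not run. Scripts used Python 3.11.15, scipy 1.17.1 and pandas 2.3.3. Alternatives were another adjustment, pooled tables, centring, a filter on the standard error, another threshold and 27 degrees of freedom.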

Additional observations from a re-analysis of the deposited data

How the results depend on the processing

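Of 75 values of the 5 genes under the alternatives, 71 kept their direction and their side of the threshold, 4 kept the direction but missed the threshold, and none changed sign. Only centring alters the ratios, so under the other alternatives counted here the direction could not change. A threshold of 0.1 could not lose a call either. The 4 were all of Kcnk13. Between CTL and UPS the count of the 5 genes past the threshold went from 1 to 0 when all 3 tables were adjusted as 1 family (adjusted p of Kcnk13 = 0.0544), with ratios centred on the table's median (0.0527) and with Benjamini-Yekutieli adjustment (0.311). Between LB and UPS it went to 0 with Benjamini-Yekutieli adjustment only (0.165), and stayed at 1 with pooled tables (0.0430), centring (0.0475) and the filter on the standard error (0.0257). For any rearing difference it went to 0 with Benjamini-Yekutieli adjustment (0.188) and was 1 with centring, the filter, the threshold of 0.1 and 27 degrees of freedom, with an adjusted p of 0.0266 to 0.0443. Pooled tables do not apply to that test. Benjamini-Yekutieli adjustment, stricter by construction, also lowered the counts over all genes from 23, 30 and 33 to 4, 13 and 12 for CTL and UPS, LB and UPS, and any rearing difference. A threshold of 0.1 raised 30 to 48 between LB and UPS, and pooled tables gave 3 genes between CTL and LB in place of 0, none of the 5 among them. No paired analysis was possible because the tables hold no values per library, and for the same reason no library could be left out. Precision is limited by the number of animals, and depth is unknown.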
